A study of Mus musculus with 24 samples.

Results

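The wild-type libraries of batch C (wt_C, 2 libraries) were compared with the 9 wild-type libraries of the other 4 batches (wt_A, wt_B, wt_D and wt_E). These 11 libraries were chosen by their labels alone, out of 24 libraries in the series. All 11 are RNA-seq of unedited mouse embryonic stem cells (mESCs) of strain 129S6/SvEvTac, grown on gelatin in serum with LIF, a cytokine that keeps these cells undifferentiated. Batches A, B, C and E hold 2 wild-type libraries each and batch D holds 3. Each batch also holds knock-out lines of ISWI chromatin remodelling subunits, and batch C holds the 2 libraries of the Bptf line (bptf_ko_C). The labels describe every library as made from poly(A) RNA with the same kit. They do not say whether replicate libraries came from separate cultures. The paper's methods call the RNA-seq replicates independent, and its reporting summary calls replicates biological. How far the spread between replicates is technical was not tested. The main p-values and standard errors of single genes measure the spread between replicates within batches, and leave out shifts between batches. Fits of 2 against 9 libraries, given below for some genes, also count the spread between the other 4 batches. Everything that sets batch C apart from the other batches, cells and library making alike, cannot be told apart by design.

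Most messenger RNAs end in a poly(A) tail, and poly(A) selection keeps them by that tail. Several kinds of abundant RNA carry none. Replication-dependent histone mRNAs are made in S phase and end in a conserved stem-loop that is bound by the protein SLBP. Small nucleolar RNAs (snoRNAs) are cut from the introns of host genes, and guide chemical changes of ribosomal RNA. H/ACA snoRNAs direct pseudouridylation and C/D snoRNAs direct ribose methylation, while the related Cajal body RNAs act on spliceosomal RNAs. Rpph1 and Rmrp are the RNA cores of RNase P and RNase MRP, and Terc is the template of telomerase. Precursors of microRNAs are likewise cut out of longer transcripts. A difference in these classes can therefore be set beside one in polyadenylated genes that report on the state of the cells.

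The sequence features that mark these classes are shown first. The histone mRNAs below were, for each core histone, the ones with the highest wt_C level among genes with a hairpin that several histone genes share, and the capitals mark the 16 letters of the hairpin (transcript strand, GENCODE models, GRCm38).
H2ac4, chr13:23751572-23751587, plus strand: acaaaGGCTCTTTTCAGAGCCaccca
H2bc3, chr13:23747203-23747218, plus strand: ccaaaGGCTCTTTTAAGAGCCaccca
H3c2, chr13:23752820-23752835, plus strand: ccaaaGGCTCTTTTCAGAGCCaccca
H4c6, chr13:23551291-23551306, minus strand: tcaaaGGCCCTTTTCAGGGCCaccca
A search of the last 150 bases of each transcript for 6 letters, a loop of 4 and the same 6 letters in reverse complement found such a shape of any letters in 25 of 61 replication-dependent histone genes, 2 of 11 replacement histones and 4342 of 21286 other genes (20.4%). Among the histone genes the most frequent letters were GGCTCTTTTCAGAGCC, held by 11 of the 61, by none of the 11 replacement histones and by none of the 21286 other genes. These letters were chosen for being frequent in histones. H2ac4 and H3c2 carry these letters, and H2bc3 and H4c6 carry other letters of the same hairpin shape. Only the transcript strand was searched, and a missing match says only that these letters are not in the window.

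Of the snoRNAs, 2 of each kind were chosen to show the boxes that define them. Snord34 and Snord22, C/D snoRNAs named below, held no stretch with the exact letters TGATGA and are not shown. Capitals mark the ACA box near the 3′ end of H/ACA snoRNAs, and the C box (TGATGA) and D box (CTGA) of C/D snoRNAs.
Snora78, chr17:24719676-24719803, minus strand: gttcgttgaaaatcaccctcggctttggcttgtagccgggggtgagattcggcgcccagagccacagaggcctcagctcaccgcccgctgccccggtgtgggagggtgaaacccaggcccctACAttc
Snora33, chr10:23785347-23785475, minus strand: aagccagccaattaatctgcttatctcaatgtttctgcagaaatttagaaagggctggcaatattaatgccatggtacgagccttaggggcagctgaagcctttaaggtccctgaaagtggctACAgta
Snord32a, chr7:45127382-45127464, minus strand: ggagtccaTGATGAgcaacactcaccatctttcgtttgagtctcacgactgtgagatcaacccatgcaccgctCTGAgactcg
Snord17, chr2:144265979-144266216, minus strand: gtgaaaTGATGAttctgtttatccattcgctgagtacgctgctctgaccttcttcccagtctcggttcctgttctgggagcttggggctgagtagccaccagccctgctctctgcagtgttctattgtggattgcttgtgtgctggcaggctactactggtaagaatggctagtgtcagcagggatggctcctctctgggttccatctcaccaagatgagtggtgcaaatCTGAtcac

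The 6 classes of RNA without a poly(A) tail took 0.996% of all counts in wt_C replicate 1 (95% Wilson interval 0.992% to 1.001%) and 0.966% in replicate 2 (0.962% to 0.971%). In the other 9 wild-type libraries they took between 0.0446% and 0.0618%, with a median of 0.0574%. Both wt_C libraries lay far above every other wild-type library, and the mean share was 17.7-fold higher. The intervals cover counting error only. The gene with the most counts in wt_C, ID100861531, had no RefSeq name and so entered none of these classes. It took 1.23% and 1.34% of wt_C counts, and its kind of RNA was not examined. In the other 9 libraries Hsp90ab1 had the most counts, at 0.811% to 1.02%. Histone mRNAs rose from 0.00266% ± 0.00075 (SD, n = 9) to 0.451% ± 0.0086 (SD, n = 2), and the small nuclear and cytoplasmic RNAs from 7.74e-05% ± 5.5e-05 (SD, n = 9) to 0.416% ± 0.012 (SD, n = 2). Cajal body RNAs were 463-fold higher in their share, H/ACA snoRNAs 6.81-fold and C/D snoRNAs 1.99-fold. The share of microRNA genes moved least, by 1.28-fold, with 0.0427% ± 0.00066 (SD, n = 2) against 0.0335% ± 0.0062 (SD, n = 9). An exact two-sided permutation test over libraries gave p = 0.0182 for the sum and for 5 of the 6 classes (adjusted over the 7 measures, 0.0212), which is the smallest p that 2 libraries against 9 allow, and p = 0.0364 for the microRNA genes. With batches as the units, 5 batches cannot give a p below 0.2.

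**Figure D1:**
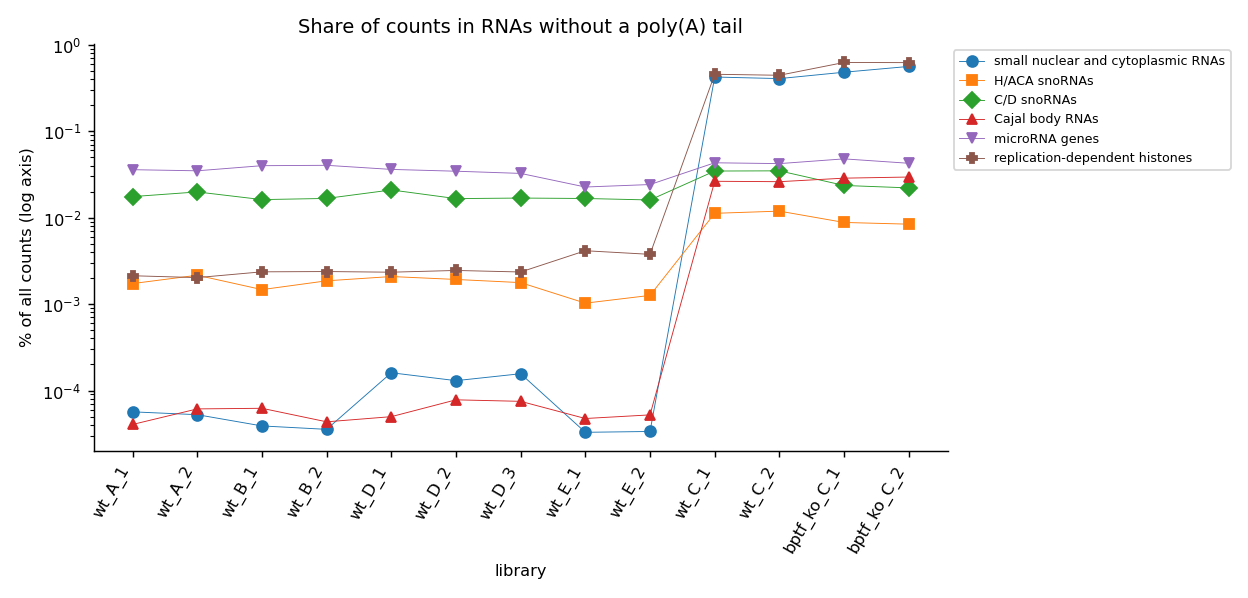
Share of all counts (%, log axis) in 6 classes of RNA without a poly(A) tail, for the 11 wild-type libraries and the 2 libraries of the Bptf line of batch C, with 1 point per library and class. The histones and the small nuclear and cytoplasmic RNAs step up from at most 0.0041% in the other wild types to at least 0.407% in batch C, and the microRNA genes go from 0.0226% to 0.0404% in the other wild types to 0.0422% and 0.0432% in wt_C.

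Gene by gene, 15413 genes had enough counts to be tested, and a gene was called where its wt_C level differed over 2-fold from the mean of the other 4 batches with an adjusted p under 0.01 (edgeR's quasi-likelihood test). By that rule 468 genes were higher in wt_C (3.04%) and 577 were lower (3.74%), together 6.78%. In 439 of the higher and 505 of the lower genes the groups did not overlap, which held for 16.0% (above) and 14.4% (below) of all genes tested. RNAs without a tail made up 164 of the higher and 2 of the lower genes, out of 238 tested. The other 304 higher and 575 lower genes came from the 15175 remaining genes, and without wt_C replicate 2 the 304 became 201. A gene that is nearly silent outside batch C could pass the filter through wt_C alone, so the counts in the classes below are descriptions. Of 1321 members in the table, 1083 were not tested, and 676 of those had no count in wt_C.

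Histone mRNAs were the largest of the 6 classes by number called. Of 61 replication-dependent histone genes 57 were tested, and 55 were called higher, with log2 fold changes from 1.09 (H3c14) to 11.99 (H2bc18) and a median over the tested members of 9.01, beside -0.0031 over all genes. H1f1, a linker histone, had 731 and 710 normalized CPM (counts scaled by library total and normalization factor) in the wt_C libraries and 0.0369 to 0.769 CPM in the others, with a median of 0.459 CPM. Its log2 fold change was 10.93 ± 0.11 (SE, adjusted p = 4.711e-22). H2bc18, which encodes histone H2B, had 588 and 561 CPM in wt_C and 0.0328 to 0.297 CPM elsewhere (log2 fold change 11.99 ± 0.094 (SE)). The linker histone genes H1f3 and H1f5 likewise had over 400 CPM in both wt_C libraries and at most 0.627 CPM in any other, a change of 10.20 and 10.86 on the log2 scale. H1f2 kept the highest level of these 5 outside batch C, at 2.54 to 6.60 CPM against 324 and 306 CPM in wt_C.

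The histone genes that did not follow were H2bc4 and H2bc21, both of which encode H2B. H2bc4 had 10.98 and 10.87 CPM in wt_C and 5.89 to 20.4 CPM in the other libraries (log2 fold change 0.15 ± 0.11 (SE), adjusted p = 0.2897). H2bc21 had 2.21 and 2.09 CPM against 0.983 to 2.40 CPM (0.22 ± 0.26 (SE), adjusted p = 0.5223). In both genes the wt_C libraries lay inside the range of the others. Gene models matter here, since the counted model was over 500 bases for 32 of the 55 called histone genes. A search by older histone symbols, made after the values were seen, added 6 genes under other names, and each of them was called higher. H4f16, with 73.6 and 70.5 CPM in wt_C and at most 0.134 CPM elsewhere, was the strongest of them.

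The RNA cores of processing enzymes showed the largest differences. Of 10 small nuclear and cytoplasmic RNAs 7 were tested and each was called higher. Rpph1 (chr14:50807447-50807771), the RNA of RNase P, which trims the 5′ end of tRNAs, had 3587 and 3363 CPM in wt_C and 0.148 to 1.44 CPM in the others (log2 fold change 13.23 ± 0.069 (SE), adjusted p = 3.472e-26). Rmrp (chr4:43492785-43493059), the RNA of RNase MRP, which acts on the precursor of ribosomal RNA, had 599 and 659 CPM against 0 to 0.288 CPM (12.64 ± 0.11 (SE)). Terc (chr3:96414437-96414833) had 20.4 and 23.8 CPM against 0 to 0.164 CPM (9.18 ± 0.20 (SE)). Rnu3a, a U3 RNA, which is needed for the first cuts of ribosomal RNA, had 8.93 and 14.1 CPM against at most 0.0763 CPM. Rprl2 and Rprl3, named as relatives of RNase P RNA, had 87.4 and 72.1 CPM and 14.2 and 15.9 CPM in wt_C, and each had 1 count in all 9 other libraries together. The ratio was 20085 (95% counting interval 3602 to 793600) for Rprl2 and 3759 (672 to 148740) for Rprl3. These relatives may share reads with near-identical copies, so their counts are uncertain.

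Of the snoRNAs, 22 of 27 tested H/ACA members (35 in the table) and 40 of 45 tested C/D members (72 in the table) were called higher, and none was called lower. Their median log2 fold changes were 2.32 and 2.28, smaller than those of histones and Cajal body RNAs. Snora78, shown above, had 19.8 and 20.3 CPM in wt_C and 0.0738 to 0.636 CPM in the other libraries (5.92 ± 0.16 (SE)). Snora33 had 6.35 and 6.27 CPM against 0.305 to 1.05 CPM (3.69 ± 0.20 (SE)). Snora17 had 10.9 and 10.5 CPM against 0.148 to 0.468 CPM. Snora61 was at the edge, with 5.33 and 4.42 CPM against 1.37 to 3.44 CPM (1.10 ± 0.17 (SE), adjusted p = 3.353e-05), was not called against each batch on its own, and lost its call with 2 against 9 libraries (adjusted p = 0.0494).

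Among C/D snoRNAs, Snord17 had 11.7 and 15.4 CPM in wt_C and 0.0382 to 0.317 CPM elsewhere (6.78 ± 0.23 (SE)). Snord34 had 20.2 and 18.5 CPM against 0.496 to 2.65 CPM (3.91 ± 0.15 (SE)). Snord32a, shown above, had 6.24 and 6.98 CPM against 0.687 to 2.26 CPM (2.28 ± 0.20 (SE)). Snord22 had 6.30 and 6.03 CPM against 2.34 to 3.69 CPM (1.14 ± 0.13 (SE)) and was not called against each batch. Both wt_C libraries were above all 9 others for each of these, and each was counted in every other library. Snord64 had 62.4 and 57.97 CPM against 9.48 to 26.1 CPM, over a gene model of 3937 bases that reaches far beyond a snoRNA. The Cajal body RNAs were closer to the histones. All 5 tested members (9 in the table) were called, led by Scarna10 with 108 and 107 CPM in wt_C and 0.127 to 0.296 CPM in the others (9.06 ± 0.091 (SE)), and Scarna13 with 71.9 and 69.1 CPM against 0.153 to 0.459 CPM.

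**Figure D2:**
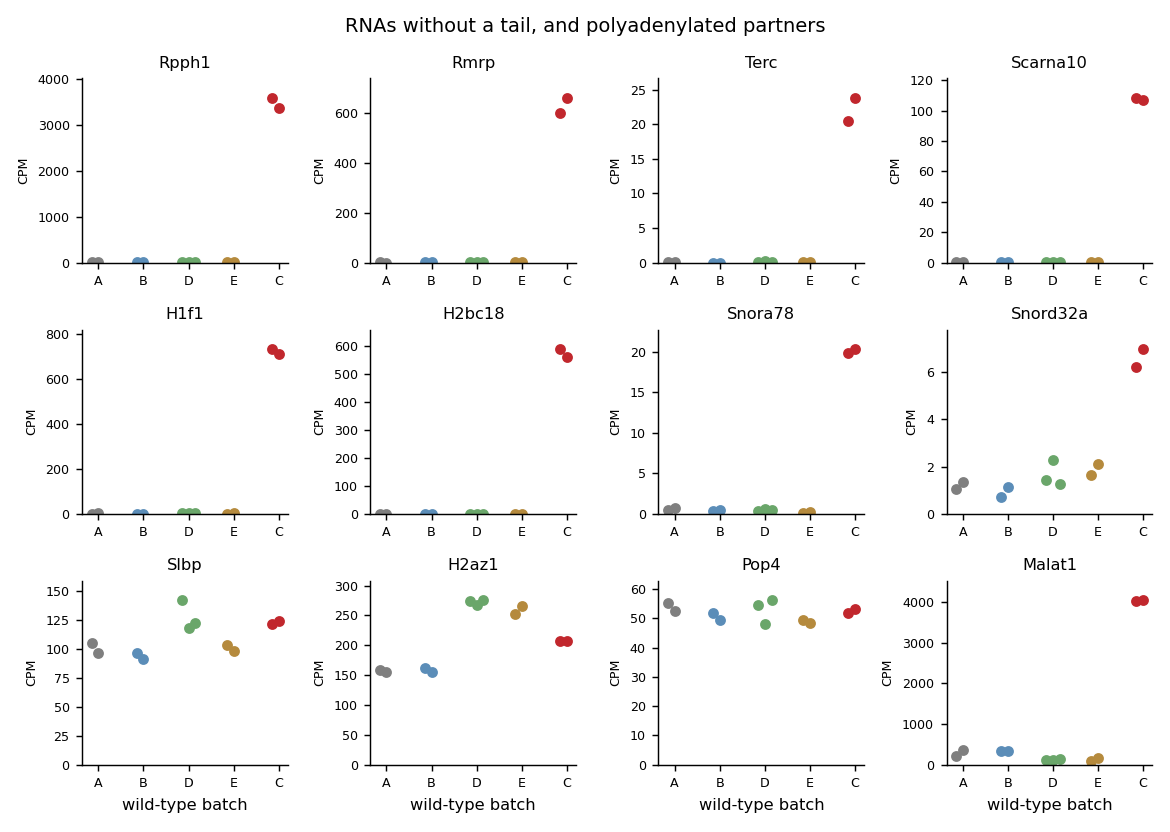
Normalized CPM (linear axis from 0) of 12 genes in the 11 wild-type libraries by batch, 1 point per library, with batch C last and in red. Rpph1, Rmrp, Terc, Scarna10, H1f1, H2bc18, Snora78, Snord32a and Malat1 are high only in the 2 wt_C libraries, while Slbp, H2az1 and Pop4 in wt_C lie inside the range of the other batches.

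MicroRNA genes were mixed. Of 97 tested (1134 in the table) 35 were called higher and 2 lower, and the median log2 fold change was 0.46. A mature microRNA is too short for these libraries, so the counts stand for precursors or for longer transcripts across the gene, and 8 of the 35 models were over 500 bases. Called genes included 2 clusters that mESCs are known to transcribe, of which the mature strands that hold the letters AAGUGC at their start are shown, with the seed (bases 2 to 8) in capitals (RefSeq, GRCm38).
miR-290a-3p: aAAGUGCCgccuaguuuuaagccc
miR-290b-3p: aAGUGCCCccauaguuugagua
miR-291a-3p: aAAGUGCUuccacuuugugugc
miR-291b-3p: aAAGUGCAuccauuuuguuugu
miR-295-3p: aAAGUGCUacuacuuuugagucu
miR-17-5p: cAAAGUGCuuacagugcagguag
miR-20a-5p: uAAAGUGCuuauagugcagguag
Mir291a and Mir295 thus share 1 seed, and Mir17 and Mir20a share another. Mir291b had 21.7 and 22.2 CPM in wt_C and 1.26 to 2.88 CPM in the others (3.57 ± 0.14 (SE)), and Mir292 had 5.87 and 5.73 CPM against 0.0656 to 0.553 CPM. Mir290a changed by 4.36 ± 0.25 (SE), Mir290b by 3.61, Mir291a by 4.56 ± 0.34 (SE) and Mir295 by 2.56 ± 0.30 (SE) on the log2 scale. Mir17 and Mir20a were low, at 1.25 and 1.90 CPM on average in wt_C. The gene Nlrp12 (chr7:3218643-3249771) spans the place of Mir291a, Mir291b, Mir292 and Mir295, and it was also called higher, with 233 and 218 CPM against 13.7 to 32.9 CPM. How strand and overlapping genes were counted is not given in the sources used here, so these reads cannot be assigned to one gene.

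The highest of the called microRNA genes was Mir3069 (chr12:105031077-105031141), which lies inside Scarna13 (chr12:105031075-105031349), with 49.5 and 44.2 CPM in wt_C and at most 0.134 CPM elsewhere (9.71 ± 0.17 (SE)). Mir703 had 8.88 and 8.78 CPM against 1.07 to 7.06 CPM, and was not called against each batch or with 2 against 9 libraries (adjusted p = 0.106). The 2 lower ones were Mir6236, with 2.91 and 11.9 CPM against 5.56 to 167 CPM, and Mir8115. Mir6236 overlapped between the groups.

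**Figure D3:**
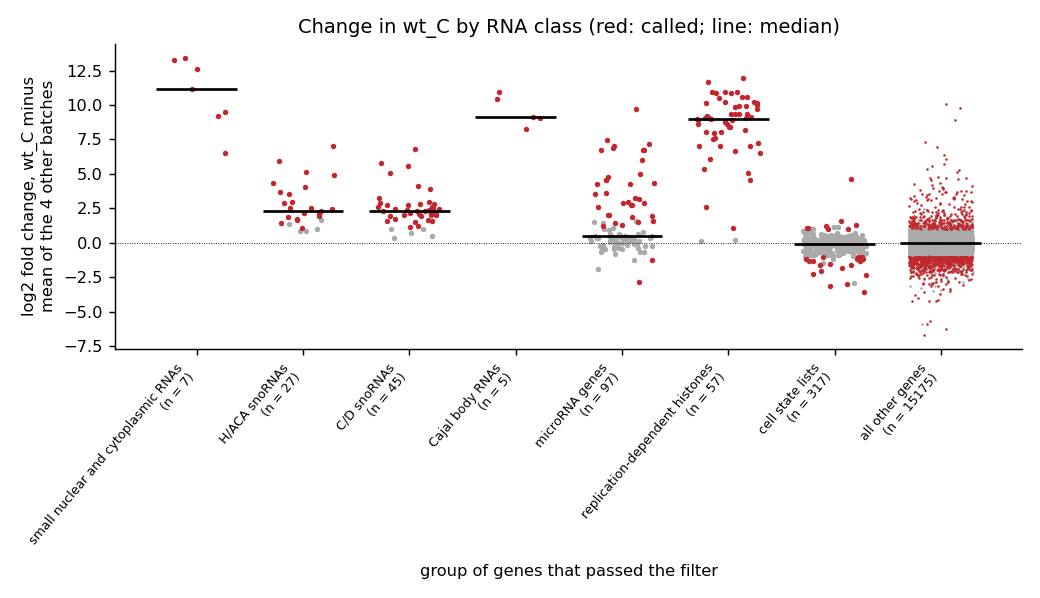
Log2 fold change of wt_C over the mean of the other 4 batches for each tested gene, by class, with called genes in red and the median as a line (n tested under each name). The medians of the histones and of the Cajal body RNAs are near 9, those of both snoRNA classes near 2.3, and that of all other genes near 0, while the medians of single cell state lists, pooled in the plot, ran from -0.65 to 0.21.

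Few of the polyadenylated genes whose products work with these RNAs were called. Over all genes 3.04% were called higher and 3.74% lower. SLBP binds the histone stem-loop, and Slbp had 121 and 124 CPM in wt_C and 91.1 to 142 CPM in the others (0.22 ± 0.064 (SE), adjusted p = 0.007472), inside their range. Of 11 tested genes for histone mRNA processing none was called, though 7 were higher at an adjusted p under 0.01 with no fold minimum, a level that 19.2% of all genes reached. Npat, the activator of histone genes, changed by 0.42 ± 0.052 (SE), and Casp8ap2 by 0.74 ± 0.065 (SE). None of 11 RNase P and MRP protein genes was called (median 0.16), with Pop1 at 0.44 ± 0.050 (SE). Of 13 snoRNP protein genes only Gar1, of the H/ACA particle, was called, and it was lower, with 29.9 and 30.6 CPM against 57.5 to 80.2 CPM (-1.21 ± 0.067 (SE)). With no fold minimum 5 of the 13 were higher and 3 lower, against 19.2% and 18.6% of all genes. Fbl (-0.69 ± 0.058 (SE)) and Naf1 (-0.74 ± 0.069 (SE)) were among the lower. Of 14 genes of the 7SK and signal recognition particles only Cdk9 was called (-1.02 ± 0.060 (SE)), and it fell under the 2-fold limit without batch D (-0.95).

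The replacement histones, whose mRNAs are mostly polyadenylated, were set beside the replication-dependent ones. The tails of single genes were not examined. None of 11 was called higher and 1 was called lower, with a median log2 fold change of -0.29. Over all genes 3.04% were called higher and 3.74% lower. With no fold minimum 6 of the 11 were lower and 0 higher, against 18.6% and 19.2% of all genes. H2ax, a variant phosphorylated at DNA breaks, had 171 and 167 CPM in wt_C and 144 to 433 CPM in the others (-0.52 ± 0.075 (SE)). H1f10, a linker histone, fell from 5.85 to 31.8 CPM in the 9 libraries to 2.10 and 2.63 CPM (-2.59 ± 0.17 (SE)). Summed over all 11, replacement histones had 1165 and 1152 CPM in wt_C and 1030 to 1763 CPM elsewhere. The summed replication-dependent histones went from 19.6 to 41.9 CPM up to 4645 and 4531 CPM.

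Since histone mRNAs are made in S phase, genes of the cell cycle were compared. With no fold minimum 19.2% of all genes were higher and 18.6% lower. Of 26 S phase genes none was called in either direction, 9 were higher and 2 lower with no fold minimum, and the median was 0.13. Pola1, a subunit of DNA polymerase alpha, rose by 0.57 ± 0.051 (SE), and Gins2, part of the replicative helicase, fell by 0.38 on the log2 scale. Of 20 genes of G2 and M phase none was called, 10 were higher and 3 lower with no fold minimum (median 0.17), among them Top2a at 0.56 ± 0.051 (SE) and Plk1 at -0.51 ± 0.056 (SE). The largest change of any gene of the 2 lists was 0.57 on the log2 scale.

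Host genes and nuclear RNAs were mixed. Of 17 snoRNA host genes 3 were called higher (17.6%) and 1 (Snhg11) lower (5.88%), against 3.04% and 3.74% of all genes, and the median was 0.81. Of 11 nuclear long noncoding RNAs 3 were called higher (27.3%) and 8 were not called, with a median of 0.28. Snhg3 had 203 and 228 CPM in wt_C and 18.4 to 33.4 CPM in the other libraries (3.06 ± 0.062 (SE), adjusted p = 1.675e-17). Snhg4 changed by 1.53 ± 0.065 (SE) and Snhg12 by 1.28 ± 0.068 (SE), and both contain a called snoRNA, so their counts may include it. Of the called ones, Malat1, a nuclear RNA whose mature 3′ end is cut by RNase P and carries no conventional tail, had 4026 and 4036 CPM against 102 to 363 CPM (4.34 ± 0.12 (SE)). Kcnq1ot1, a nuclear antisense RNA of an imprinted locus, had 52.7 and 76.0 CPM against 1.5 to 3.94 CPM (4.64 ± 0.14 (SE)). Neat1, which scaffolds paraspeckles, did not pass the test, at 85.8 and 89.5 CPM against 45.6 to 121 CPM (0.16 ± 0.16 (SE), adjusted p = 0.421).

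The 304 other genes called higher were not all polyadenylated, since 5 histones of other names are among the 10 largest increases. Of the 304, 11 (3.62%) lay within 10000 bases of a called RNA without a tail other than a microRNA, against 95 (0.665%) of the 14296 genes not called. Ccdc107 (chr4:43493340-43495921) starts 281 bases from Rmrp and had 213 and 253 CPM in wt_C against 6.66 to 9.59 CPM (4.80 ± 0.058 (SE)). Ccnb1ip1 (chr14:50789249-50795728), a gene of meiotic recombination, ends 11719 bases from Rpph1 and had 2364 and 2229 CPM against 45.1 to 80.3 CPM (5.37 ± 0.062 (SE)). Trim17 (chr11:58954671-58973075) covers the histone gene H2aw (chr11:58954685-58955192) and had 85.8 and 83.8 CPM against 1.57 to 8.12 CPM. The other increases that the rule of naming picked were B3galt2, the histones H4f16, H4bc24, H3f4, H2bu2 and H2af-ps2, and Kcnq1ot1. H4bc24 had the same values as the listed histone H2bc23 in both wt_C libraries, 8.82 and 8.60 CPM, so how reads were split between them is uncertain.

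The decreases were of another kind. S100a11, a calcium-binding protein gene, had 4.57 and 4.95 CPM against 35.6 to 95.2 CPM (-3.35 ± 0.18 (SE), adjusted p = 3.545e-11). Hand1, a factor of heart and trophoblast development, had 0.108 and 0.179 CPM against 1.11 to 2.54 CPM (-3.60 ± 0.41 (SE)). The log2 changes of Zfp703, Tox2 and Prr36 were -4.01, -3.34 and -3.06, and their wt_C libraries were below all others. Syna, an envelope gene of retroviral origin used in placental cell fusion, had no count in either wt_C library and 0.229 to 0.636 CPM in the others. C430042M11Rik, Fam163b and Cbfa2t3 had 1 count or none per wt_C library and at most 1.11 CPM elsewhere. Without wt_C replicate 1 the calls of Syna (adjusted p = 0.0135), C430042M11Rik (0.0108) and Fam163b (0.0116) were lost, and without replicate 2 those of Syna (0.0103) and Cbfa2t3 (0.0205). Fam163b was not called with 2 against 9 libraries (0.0125), nor Cbfa2t3 by DESeq2 (0.0171). Among genes of high level, picked after their values were seen, Ncl (nucleolin) changed by -1.5 ± 0.086 (SE), Pabpc1 (poly(A)-binding protein) by -1.89 ± 0.071 (SE), Pcbp2 by -2.59 ± 0.088 (SE), Hnrnpd by -2.02 ± 0.089 (SE), and Polr2a, the largest subunit of RNA polymerase II, by -2.58 ± 0.10 (SE). Each of these was lower in both wt_C libraries than in all 9 others.

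These calls moved with base composition. Among other genes with a known GC content (14509 of 15175), in 10 groups of equal size, 24 of 1451 in the GC-poorest group were called lower (1.65%) and 109 of 1451 in the richest (7.51%), while the share called higher was 2.07% and 1.59%. The median log2 fold change went from 0.12 in the poorest group to -0.18 in the richest. The 2 wt_C libraries had the lowest GC-rich minus GC-poor medians of the 11, at -0.19 and -0.27, and the others ran from -0.14 to 0.27. With a per-library correction for GC content, chosen after seeing the data, 280 other genes were called higher and 468 lower. Genes with no GC value left that fit, and of those with one 246 were called higher and 563 lower before the correction.

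**Figure D4:**
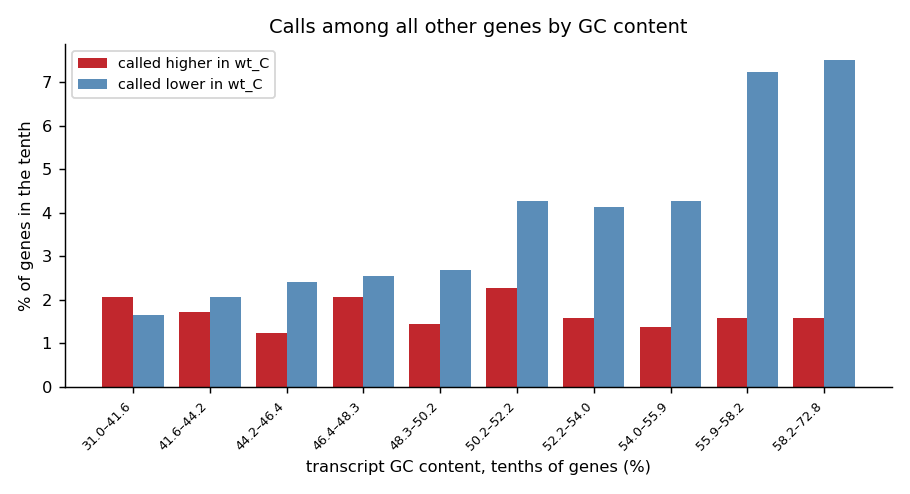
Share (%) of the genes outside the classes without a tail called higher (red) or lower (blue) in wt_C, in 10 groups of equal size by the GC content of the transcript closest in length to the counted gene model. The share called lower goes from 1.65% in the poorest group to 7.51% in the richest, and the share called higher stays between 1.24% and 2.28%.

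The state of the cells was read from 20 lists of pluripotency, lineage, signalling, stress, metabolic and imprinted genes with 341 members, of which 317 were tested. By the same rule 8 were higher (2.52%) and 20 lower (6.31%), or 31 lower without batch D. The 24 imprinted genes gave 2 of the 8 and 3 of the 20, and both of the higher ones (Kcnq1ot1 and Mirg) are also in the list of nuclear RNAs. These shares were 3.04% and 3.74% of all genes, and 2.0% and 3.79% once RNAs without a tail were left out. In bulk RNA, fewer cells of a type and less RNA per cell cannot be told apart. Of the 6 core pluripotency factors none was called, and with no fold minimum 4 were lower and 1 higher, against 18.6% and 19.2% of all genes. Pou5f1, which encodes OCT4, had 1152 and 1106 CPM in wt_C and 991 to 1623 CPM in the others (-0.07 ± 0.061 (SE), adjusted p = 0.394). Nanog had 400 and 382 CPM against 367 to 538 CPM (-0.19 ± 0.049 (SE)), and Esrrb had 464 and 458 CPM against 442 to 847 CPM (-0.53 ± 0.055 (SE)). Sox2 was below all others, at 285 and 293 CPM against 299 to 457 CPM (-0.31 ± 0.054 (SE)). Klf4, at 117 and 121 CPM against 119 to 262 CPM, lay at the low end of the others and overlapped them (-0.58 ± 0.079 (SE)). Zfp42 was higher, at 325 and 312 CPM against 230 to 300 CPM (0.32 ± 0.050 (SE)). When the 9 other libraries were taken as 1 group, so that the spread between batches counted, the smallest adjusted p of the 6 was 0.05588.

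Single genes of the wider lists did pass. Of 22 other naive pluripotency genes Sall4 was higher (1.07 ± 0.048 (SE)) and Utf1 lower (-1.31 ± 0.074 (SE)), and none of 16 formative and primed genes was called. The call of Utf1 was lost with 2 against 9 libraries (adjusted p = 0.0230), and neither gene was called against each batch. Lefty1 and Lefty2, inhibitors of Nodal signalling, were higher, Lefty2 at 41.3 and 42.1 CPM against 14.3 to 21.8 CPM (1.19 ± 0.062 (SE)). T, which marks the primitive streak, was at 1.45 and 1.37 CPM against 0.258 to 1.02 CPM (1.31 ± 0.28 (SE)), and in the same list Hand1 was lower. The call of T was lost without either wt_C library (adjusted p = 0.0278 and 0.0156) and with 2 against 9 libraries (0.0817). Fgf8 of that list, also called lower (-3.14), lost its call in DESeq2 (adjusted p = 0.0595) and without wt_C replicate 2 (0.108) among other settings, and Lefty1 (1.02) fell under the 2-fold limit without batch B (0.84). Of 19 primitive endoderm genes 2 were lower, among them Sox7 (-1.18 ± 0.096 (SE)), and 12 were lower with no fold minimum, against 18.6% of all genes. Neither call held with 2 against 9 libraries (Sox7 adjusted p = 0.0174) or against each batch. Of 13 trophectoderm genes 2 were called lower (15.4%, against 3.74% of all genes), Krt7 (-1.18 ± 0.18 (SE)) and Tfap2a (-2.02 ± 0.38 (SE)), and Krt7 was called neither with 2 against 9 libraries (adjusted p = 0.0729) nor against each batch. No tested gene of the 2-cell-like, neural or germline lists was called (10, 9 and 16 genes).

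Of 12 feedback genes of FGF and ERK signalling (median -0.02), Phlda1 and Spred2 were called, each against every batch, with Phlda1 at 1.99 and 2.57 CPM against 14.1 to 22.0 CPM (-3.0 ± 0.15 (SE)) and Spred2 at 30.0 and 32.6 CPM against 80.4 to 106 CPM (-1.52 ± 0.076 (SE)), while Spred1 was above all others (0.46 ± 0.048 (SE)). Over all genes 3.04% were called higher and 3.74% lower, and 1.57% were called lower against each batch. Egr1, an immediate early gene, had 7.05 and 6.09 CPM against 20.3 to 28.5 CPM (-1.84 ± 0.10 (SE)). Of 19 p53 target genes 2 were called lower, and with no fold minimum 11 were lower and 2 higher, against 18.6% and 19.2% of all genes. Cdkn1a, the cell cycle inhibitor p21, had 10.98 and 9.73 CPM against 25.3 to 68.8 CPM (-2.26 ± 0.090 (SE)), and Trp53 itself had 243 and 237 CPM against 401 to 734 CPM (-1.01 ± 0.084 (SE)). Trp53 was not called against each batch, and it fell under the 2-fold limit without batch D (-0.89) and without wt_D replicate 2 (-0.97). Atf5, Ddit4, Pdia3, Bag3 and Hspa1a of the stress lists were also called lower. With 2 against 9 libraries the calls of Atf5 (adjusted p = 0.0158), Hspa1a (0.0308) and Ddit4 (0.210) were lost, and Ddit4, at 14.7 and 15.6 CPM against 12.7 to 61.6 CPM, overlapped the others. Pdia3 (-1.01) fell under the 2-fold limit in several settings, among them without batch D (-0.99). Gapdh, called higher with 21.1 and 20.8 CPM against 4.69 to 26.4 CPM, overlapped, was not called with 2 against 9 libraries (adjusted p = 0.189) and is uncertain, since it has many near-identical copies. Lifr, the LIF receptor, was called higher (1.03 ± 0.053 (SE)), but fell under the 2-fold limit in several settings, down to 0.92 without wt_C replicate 2, and was not called against each batch. Of 24 imprinted genes Igf2, a fetal growth factor, had 9.20 and 11.1 CPM against 34.9 to 92.7 CPM (-2.32 ± 0.095 (SE)); Plagl1 (-1.33 ± 0.13 (SE)) and Peg10 (-1.02 ± 0.075 (SE)) were called lower too, while Kcnq1ot1 and Mirg were higher. Peg10 was called neither with 2 against 9 libraries (adjusted p = 0.0144) nor against each batch.

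**Figure D5:**
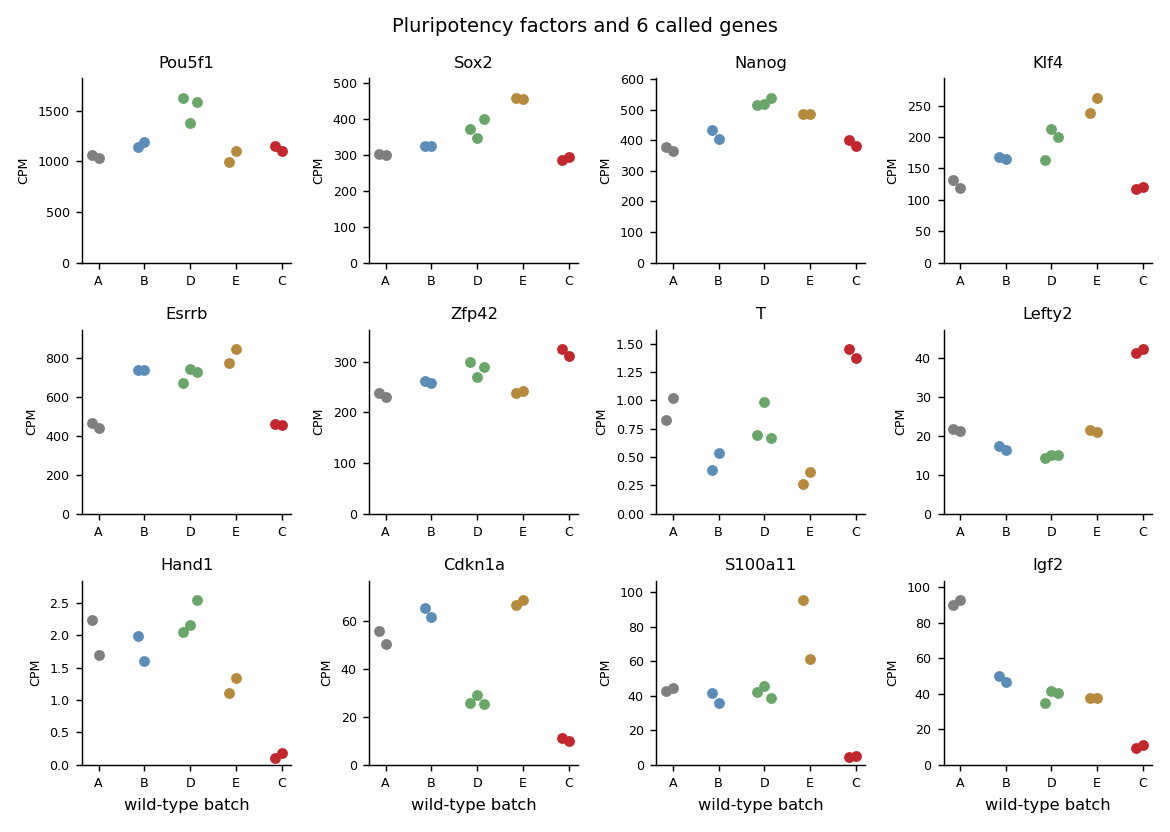
Normalized CPM (linear axis from 0) of the 6 core pluripotency factors and 6 called genes in the 11 wild-type libraries by batch, 1 point per library, batch C in red. Pou5f1, Nanog and Esrrb in wt_C overlap the other batches, Hand1, Cdkn1a, S100a11 and Igf2 are lower in wt_C than in every other library, and T and Lefty2 are higher.

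Markers of fibroblasts, the feeder cells of some mESC cultures, were read as a check of the cell type. Of 13 tested 2 were called, both lower (Acta2 and Col1a1; 15.4%, against 3.74% of all genes), and 4 were lower with no fold minimum. Both calls were lost with 2 against 9 libraries (adjusted p = 0.179 and 0.0914). Their summed level was 73.8 and 69.1 CPM in wt_C and 57.1 to 200 CPM in the others, so wt_C lay inside the range. Acta2 had 6.62 and 7.28 CPM against 4.17 to 47.7 CPM, and Col1a1 had 2.04 and 1.31 CPM against 2.0 to 16.7 CPM, so both overlapped. Of the 20 markers 3 had no count in wt_C, and none of the 13 tested had none in the others. Their part in the lowered genes was not tested.

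The libraries of the Bptf line, also of batch C, were set against the knock-out lines of the other batches, none of which entered the comparison of wild types. The CPM of wt_C were scaled with the 11 wild-type libraries, and those of the Bptf line with all 24 libraries. Bptf itself had 309 and 328 CPM in wt_C and 82.1 and 78.0 CPM in the Bptf line. RNAs without a tail took 1.22% and 1.29% of its counts, and 0.0454% to 0.0651% in the 11 libraries of the lines of other batches. Histone mRNAs were at 0.625% and 0.623% against at most 0.0044%, and the small nuclear and cytoplasmic RNAs at 0.482% and 0.562% against at most 0.00059%. Of the 164 RNAs without a tail called higher in wt_C, 147 (89.6%) were above all 11 other knock-out libraries in both Bptf libraries, against 21.5% of all genes tested, and none was below. This held for 53 of 55 histone genes, 7 of 7 small nuclear and cytoplasmic RNAs, 59 of 67 snoRNAs and Cajal body RNAs and 28 of 35 microRNA genes.

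Most other called genes kept their direction in these libraries. Of the 304 called higher in wt_C, 212 (69.7%) were above all 11 other knock-out libraries in both Bptf libraries, and 389 of the 575 called lower (67.7%) were below them, against 21.5% and 20.9% of all genes tested. In the other direction were 10 of the 304 (3.29%) and 14 of the 575 (2.43%). S100a11 was at 4.34 and 4.71 CPM in the Bptf line, beside 4.57 and 4.95 CPM in wt_C. Some genes differed from wt_C in level. Lefty2, higher in wt_C, was at 4.22 and 3.72 CPM there, and T was at 0.0603 and 0.0581 CPM. Klf4, at the low end in wt_C, was at 251 and 263 CPM. In the comparison with the other lines loss of Bptf and batch cannot be told apart, whereas wt_C, of the same batch, has intact Bptf and held 0.996% and 0.966% of counts in RNAs without a tail.

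Depth was lower in wt_C, with totals of 18912305 and 17083082 counts against 22854001 to 36126204 in the other wild types, which gives each wt_C library less precision. There, 3 counts, the limit for an RNA with no count, stood for 0.159 and 0.176 CPM in wt_C. Against single batches, 1057 genes were called in the comparison with wt_A, 1315 with wt_B, 1348 with wt_D and 1611 with wt_E; these share the wt_C libraries. Genes called in the same direction against each of the 4 batches numbered 258 higher (1.67%) and 242 lower (1.57%), of which 129 of the higher and 0 of the lower were RNAs without a tail. With the 9 libraries as 1 group, 312 genes were higher (2.02%) and 360 lower (2.34%).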

How the data were processed

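The values used were gene counts. Per the labels and the study's methods, the authors aligned reads to mm10 (HISAT2 and bcl2fastq 2.17 are named in the submitters' processing notes) and deposited 1 table of raw counts for 24594 Entrez genes in 24 libraries, with a gene width. Whether strand was used, and how multi-mapping reads and overlapping genes were counted, is not given in the sources used here. The labels and the methods name different TruSeq kits, both with poly(A) selection. Gene names came from RefSeq (24570 of 24594 IDs matched, GRCm38), and transcripts from GENCODE.

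The 11 wild-type libraries were fitted with 1 term per batch in edgeR 4.0.16 (R 4.3.3; quasi-likelihood test, TMM factors, filter on low counts by batch), and wt_C was set against the mean of the other 4 batches. Adjusted p-values are Benjamini-Hochberg values over the 15413 genes tested, from edgeR's quasi-likelihood test. Genes were called at an adjusted p under 0.01 where the log2 fold change was beyond 1 in either direction. SEs were computed from the fold change and the test statistic. CPM are counts scaled by library total and TMM factor. The TMM factors came from the 11 wild-type libraries, and from all 24 libraries for the CPM of the Bptf line. Alternatives used DESeq2 1.42.0, other filters, designs and scalings, and left-out libraries and batches. On simulated counts for 15137 genes with 200 changed, the test recovered 88% of 3-fold and 96% of 8-fold changes with 0 false calls. The simulation gave every batch the same mean for each unchanged gene, and the changed genes averaged at least 10 counts. It therefore does not speak to shifts between real batches.

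Named genes were, in each class, the 5 called genes of highest wt_C level whose libraries did not overlap the others; the 10 largest increases and decreases among other genes called against each batch with a mean of at least 10 counts; the 6 core factors, Bptf, Malat1, Neat1, Slbp and H2ax; and up to 4 genes of smallest adjusted p per list. Genes named beyond this rule were chosen after their values were seen. The comparison, the lists and the rule were chosen with earlier results of these data known. Replicates of each group differed by more than sampling noise and were kept apart. Some named genes are not reported here.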

Additional observations from a re-analysis of the deposited data

Results flagged for a closer look

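The 2 libraries of the Bptf line in batch C were outside the comparison of wild types and carried the same classes of RNA: those without a poly(A) tail took 1.216% of counts in replicate 1 and 1.288% in replicate 2, above the 0.0446% to 0.0618% of the 9 wild-type libraries of other batches. Within batch C, wt_C, with intact Bptf, held 0.996% and 0.966%. The cause of the excess over other batches was not tested. Among 18 measures tested for a library far from the other wild types of batches A, B, D and E (9 libraries), 0 passed Dixon's 95% critical value.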

How the results depend on the processing

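Other scalings, DESeq2 (993 genes called), the newer edgeR fit, no filter on low counts and a fit of all 24 libraries kept the total within 1.5 times 1045 (range 993 to 1211). The total was 457 in a test against a 2-fold change, 5827 with no fold minimum, 650 with a stricter filter, 660 with a filter blind to batch, 672 with 2 against 9 libraries and 500 when called against each batch. In the same order, without the settings that moved it less, the higher genes (468) were 238, 2957, 161, 145 and, against each batch, 258, and the lower genes (577) were 219, 2870, and, for 2 against 9 and each batch, 360 and 242. Among RNAs without a tail, 164 higher became 61 and 15 under the stricter and the batch-blind filter, which test fewer genes of low mean level, histones 55 became 3 under the latter, and the 62 snoRNAs became 9 and 8, and 38 in the 2-fold test. The 2 lower ones became 1 in the 2-fold test, with the stricter filter, without batch B, without batch E and without wt_C replicate 2, 5 with no fold minimum, and 0 with 2 against 9 and each batch. Of other genes, 304 higher became 109, 2782, 100, 130, 179 and 129 in the order of the totals, and 575 lower became 218 and 2865, and 360 and 242 for 2 against 9 and each batch. The cell state counts, 8 higher and 20 lower, became 2 and 8 in the 2-fold test, 59 and 104 with no fold minimum, 5 and 11 with 2 against 9, 2 and 8 against each batch, and 31 lower without batch D. Leaving out 1 library gave 875 to 1115 in all, 339 to 529 higher, 517 to 586 lower, 135 to 177 and 1 to 2 RNAs without a tail, 201 to 352 and 515 to 584 other genes, 54 to 57 histones, 46 to 66 snoRNAs, and 6 to 10 and 18 to 21 cell state genes. Direction reversed only for genes that were not called: Pou5f1 (0.05729 without batch D, 0.1125 with a GC offset, 0.03978 with a width offset), Neat1 (-0.1592) and Rian (-0.01779) with the width offset. These offsets, which corrected each library for transcript GC content or gene width, and the longer histone list were chosen after seeing the data. Of 81 called named genes, 53 were called in each setting that tested them, of which 22 were tested in every setting and 31 were dropped by at least 1, and none of the 81 changed direction in a refit. Against wt_D alone the differences of Acta2 (0.376) and Ddit4 (0.236), called lower, had the opposite sign, and 26 of 178 named genes had the opposite sign against at least 1 batch. With the GC offset Utf1 (-0.9988), Pdia3 (-0.9919), Baz2a (-0.985), Ddit4 (-0.9645), Cdk9 (-0.9601), Uqcrq (-0.9524) and Trp53 (-0.917) fell under the 2-fold limit. Deviations of same-numbered replicates correlated at -0.0548 to 0.169, over 0.1 in 4 of 20 pairs (wt_E with wt_B or wt_D), so the numbers were not taken to pair the libraries, and a replicate block gave 1046 calls, 1017 of them shared. The causes of these shifts were not tested.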

Other observations

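Over all genes 3.04% were called higher and 3.74% lower. Of 86 cytosolic ribosomal protein genes 1 was called higher (Rpl13) and 0 lower, with a median log2 fold change of 0.0018. Of 83 tested oxidative phosphorylation genes 0 were higher and 1 (Uqcrq) was lower, a call lost with 2 against 9 libraries (adjusted p = 0.0108). Of 25 cholesterol genes 0 were called in either direction by edgeR, and 11 were higher and 3 lower with no fold minimum, against 19.2% and 18.6% of all genes. Of 14 ISWI subunit genes Baz2a was called lower and none higher, and 5 were higher and 2 lower with no fold minimum. Across gene widths, the median log2 fold change of other genes went from -0.08 in the shortest of 10 groups to 0.11 in the longest.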
